A study of Mus musculus with 95 samples.

Results

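Lung RNA of CD40L-KO mice exposed to Pneumocystis murina for 35 days was compared with that of unexposed CD40L-KO mice on 9 of the 95 arrays of the series. The arrays were chosen by their titles, which gave 4 exposed mice labelled day 35 and 5 unexposed mice labelled day 14, and together they made up the fourth experiment of the study. CD40L-KO mice lack the ligand of CD40 in every cell. The labels call all of the mice female and 8 weeks old, and each array held the RNA of a lung homogenate. Exposed mice were housed with a seeder mouse carrying a heavy infection, and which cage held which mouse was not stated in the sources used here. The whole series followed C57BL and CD40L-KO mice at days between 7 and 75 of such exposure. Per the design text, the fourth experiment was a second look at CD40L-KO mice after a first experiment at day 32 had shown little change in them.

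Pneumocystis is a fungus that grows attached to the epithelium of the alveoli. CD40 ligand is displayed by activated T cells and binds CD40 on B cells, dendritic cells and macrophages, which drives antibody class switching, antigen presentation and macrophage activation. Mice and people without it are known to be prone to Pneumocystis pneumonia, and alveolar macrophages are the main cells that take up and kill the organism.

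The 9 arrays had median intensities between 35.5 and 39.4, and no pair held identical values. Levels are given as log2(intensity + 8), on which an intensity of 0 gives 3, and differences are exposed minus unexposed on that scale, which understates the change of dim genes. Unexposed replicate 1 stood apart: its correlations with the other 8 arrays were between 0.961 and 0.969, while those of other pairs reached 0.983. It carried transcripts of other tissues, with a mean level of 28 squamous epithelium markers of 6.36 against 4.90 to 5.06 on the other 8 arrays, and of 24 skeletal muscle markers of 6.46 against 4.30 to 4.76. Cardiac muscle markers were highest on unexposed replicate 1 (8.13) and exposed replicate 2 (7.82), and lay between 5.91 and 7.04 on the other arrays. None of 9 tissue and RNA quality scores passed the test between the groups, with an adjusted p of 0.881 for each in exact two-sided permutation tests. Surfactant protein C (Sftpc), a defining lung transcript, was between 13.26 and 13.70 on all 9 arrays. They also held more of the Y-linked Eif2s3y (6.56 to 7.02) than of the X-inactivation transcript Xist (3.18 to 4.24), which goes against the label female. Cd40lg, the deleted gene, averaged 3.43 ± 0.23 (SD, n = 4) in exposed and 3.25 ± 0.18 (SD, n = 5) in unexposed mice, so near the floor of 3 that it does not check the labels. Its receptor Cd40 averaged 6.37 and 6.33, with an interval for the difference of -0.22 to 0.32. The day label differs along with exposure, so time and exposure cannot be told apart. The day 14 label itself is in doubt, since the growth protocol has controls killed at times matching those of the exposed mice. The sample descriptions of these 5 controls also continue the numbering of the day 14 C57BL controls, and whether they were run with those mice is not stated in the sources used here.

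**Figure D1:**
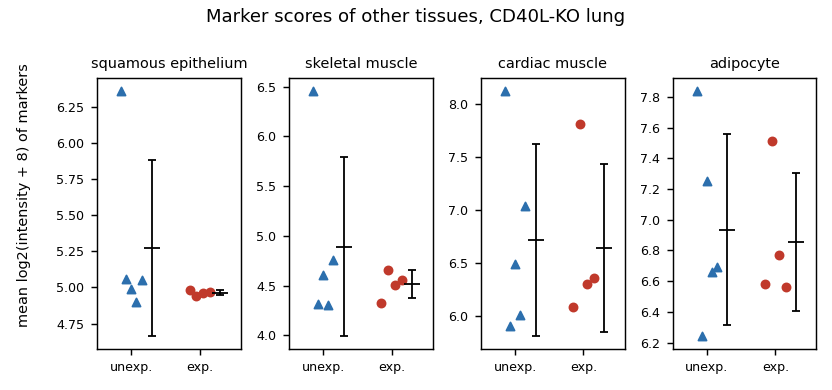
Marker scores of 4 other tissues on the 9 arrays, as the mean log2(intensity + 8) of each list's genes. Triangles are the 5 unexposed and circles the 4 exposed mice, bars give mean and SD, and each panel has its own axis. Unexposed replicate 1 is the highest point for each of the 4 tissues.

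No gene passed the adjusted test between the exposed and the unexposed CD40L-KO mice. Of 8252 genes, 0 (0.0%) had an adjusted p under 0.05 in limma, whose smallest adjusted p was 0.134. An unadjusted p under 0.05 was found for 773 genes (9.37%), of which 383 were higher (4.64%) and 390 lower (4.73%) in exposed mice. The median 95% interval of a gene reached 0.30 to each side of its difference, and 16 genes differed by more than 1, 5 of them higher and 11 lower in exposed mice. Other settings called 3 genes with an offset of 2, 20 with all 95 arrays in 1 fit, 1 with an intensity trend and robust fit and 1 without unexposed replicate 4. The first 3, Ceacam2, Kcnd2 and Rgr, were lower in exposed mice, and the last was Folr1 (these 4 genes were chosen after their values were seen). The gene called with the intensity trend was Ccl9, and Marco was among the 20. Apart from those calls, the differences between these exposed and unexposed CD40L-KO mice did not pass the adjusted test and are given as values. The p-values measure the spread between these mice.

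The gene lists differed in where their members lay. Over all genes the median difference was -0.01, and 47.2% of genes were above 0. The median was 0.24 for 30 macrophage and monocyte genes, 0.22 for 14 genes of MHC class II presentation and 0.30 for 24 neutrophil genes. The neutrophil median was 0.16 without exposed replicate 1 and 0.18 without unexposed replicate 2, below the macrophage medians of 0.29 and 0.23 in the same fits, and 0.15 with an offset of 32. The median was -0.37 for 17 genes of cholesterol synthesis, or -0.22 without unexposed replicate 2 and -0.24 without unexposed replicate 5. It was -0.31 for 14 smooth muscle genes. Lists of T cell, B cell, interferon-gamma response and MHC class I genes had medians between 0.03 and 0.08. In lung homogenate, fewer cells of a type and less RNA per cell cannot be told apart.

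**Figure D2:**
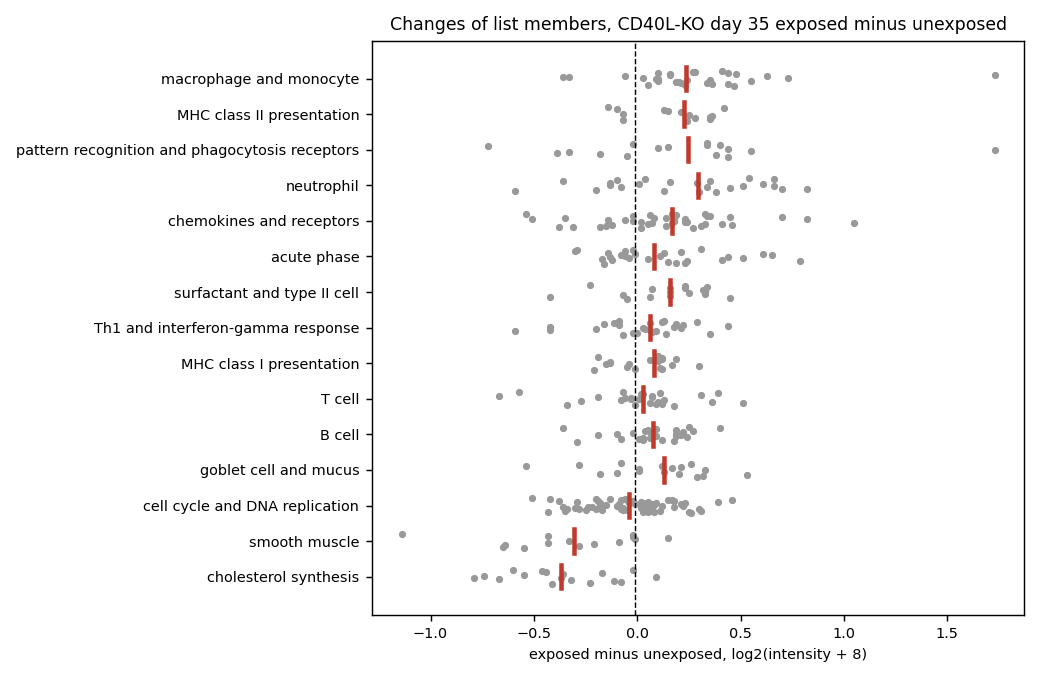
Difference of each measured member of 15 gene lists, exposed minus unexposed CD40L-KO mice, in log2(intensity + 8). Each grey point is a gene, the red bar is the list's median, and the dashed line is the median of all 8252 genes (-0.01). Medians range from -0.37 for cholesterol synthesis to 0.30 for neutrophil genes.

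Macrophage genes were higher in exposed mice without passing the adjusted test. Of 30 measured, 27 were above 0, 12 had an unadjusted p under 0.05 in the higher direction against 4.64% of all genes, and 0 in the lower direction. In 10 of the 30 every exposed mouse was above every unexposed mouse, against 2.07% of all genes. Over all genes 3.89% had groups that did not overlap, 1.82% with the exposed mice lower. The mean level of the list was between 7.33 and 7.43 in exposed and between 6.85 and 7.22 in unexposed mice.

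Marco, a scavenger receptor of alveolar macrophages, had levels of 5.91, 6.53, 6.18 and 6.70 in the 4 exposed mice and of 3.66, 5.61, 3.60, 5.06 and 5.07 in the 5 unexposed mice. The groups did not overlap, and 2 unexposed mice, replicates 1 and 3, lay more than 1 below the other 3. The difference was 1.73 ± 0.41 (SE), or 3.32-fold, with an adjusted p of 0.334 in limma, and of 0.0327 when all 95 arrays were in 1 fit.

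Cd14, the co-receptor that passes microbial lipids to Toll-like receptors, was at 8.81, 8.98, 8.89 and 8.86 in exposed and at 8.37, 8.64, 8.30, 8.44 and 8.49 in unexposed mice. The groups did not overlap, and the difference was 0.44 ± 0.09 (SE; limma adjusted p = 0.241). Mpeg1, which encodes the pore-forming perforin-2 of phagocytes, was higher by 0.48 ± 0.11 (SE; limma adjusted p = 0.334), again with no overlap.

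Itgax, the CD11c chain of alveolar macrophages and dendritic cells, was at 6.92, 7.00, 7.24 and 7.53 in exposed and at 6.18, 6.67, 6.70, 6.58 and 6.61 in unexposed mice. Here the lowest mouse was unexposed replicate 1, which was also the lowest for the adaptor Tyrobp, the lysosomal protein Cd68 and cathepsin S (Ctss). The squamous and skeletal muscle scores of that mouse were the highest of the 9. With both scores as covariates the median of the macrophage list was 0.20, with 11 genes at an unadjusted p under 0.05 in the higher direction and 1 in the lower. Without that mouse, 11 of the 30 macrophage genes had an unadjusted p under 0.05 in the higher direction and 1 in the lower. Not all phagocyte genes lay on one side. Itgam, the CD11b chain, averaged 4.13 in exposed and 4.49 in unexposed mice, and Fcgr2b, the inhibitory Fc receptor, 4.98 and 5.38.

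Among 16 pattern recognition and phagocytosis receptors, 6 (37.5%) had an unadjusted p under 0.05 in the higher and 2 (12.5%) in the lower direction. Over all genes these shares were 4.64% and 4.73%. The 6 were Marco, Cd14, the mannose receptor Mrc1, the integrin chain Itgb2, the C-type lectin Clec4d and the kinase Syk, and the 2 were Fcgr2b and the pentraxin Ptx3. Marco, Cd14 and Mrc1 also belong to the macrophage list. Itgb2, which pairs with several integrin chains of leukocytes, was at 7.83, 7.51, 7.82 and 8.01 in exposed and at 7.14, 7.11, 7.30, 7.41 and 7.26 in unexposed mice. All 4 exposed mice were above all 5 unexposed mice, by 0.55 ± 0.12 on average (SE; limma adjusted p = 0.241).

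**Figure D3:**
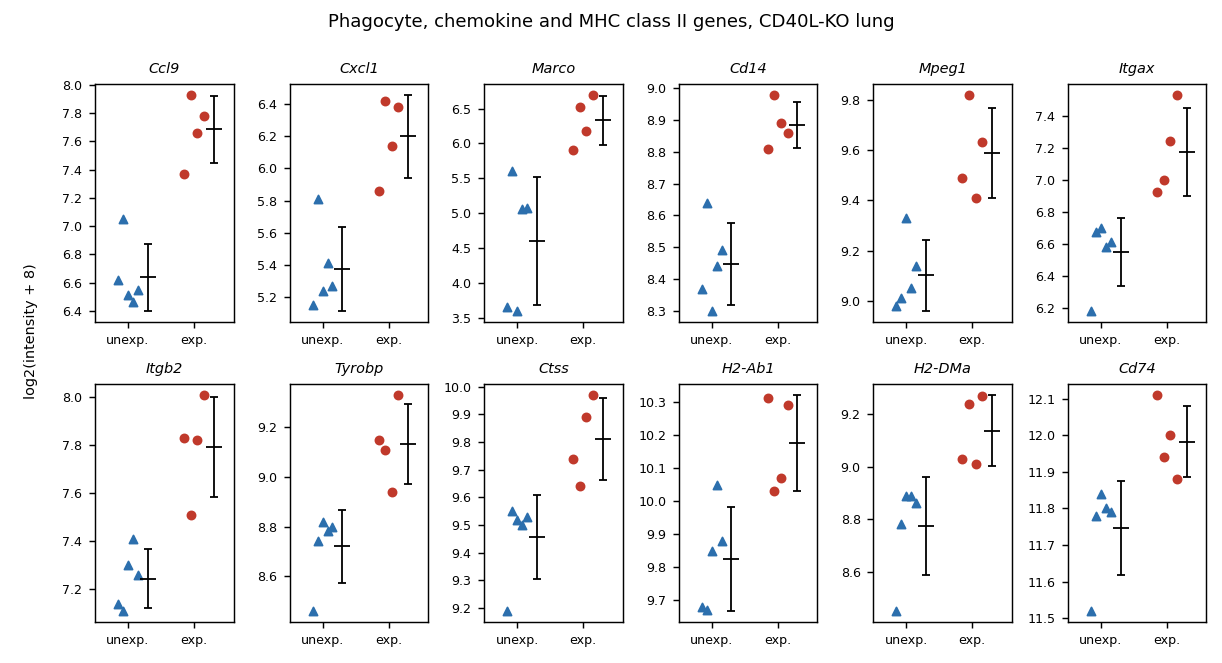
Levels of 12 phagocyte, chemokine and MHC class II genes in each mouse, in log2(intensity + 8). Triangles are the 5 unexposed and circles the 4 exposed CD40L-KO mice, bars give mean and SD, and each panel has its own axis that does not start at 0. The groups do not overlap for any of these genes but H2-Ab1, whose highest unexposed mouse (10.05) is above the lowest exposed mouse (10.03).

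Of 41 chemokines and chemokine receptors, 5 (12.2%) had an unadjusted p under 0.05 in the higher direction against 4.64% of all genes, 2 in the lower direction, and 34 in neither. The 2 were Cx3cr1 and the B cell chemokine Cxcl13. The 5 became 8 without exposed replicate 4 or unexposed replicate 4. Ccl9, the listed gene with the smallest unadjusted p (3.39e-05) and a CC chemokine made by macrophages, was at 7.37, 7.93, 7.66 and 7.78 in exposed and at 6.62, 7.05, 6.51, 6.46 and 6.55 in unexposed mice. All exposed mice were above the highest unexposed mouse, replicate 2. The difference was 1.05 ± 0.15 (SE), or 2.07-fold, with an adjusted p of 0.134 in limma and of 0.0232 with an intensity trend and robust fit.

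Cxcl1, which draws neutrophils, was at 5.86, 6.42, 6.14 and 6.38 against 5.15, 5.81, 5.24, 5.41 and 5.27, a difference of 0.82 ± 0.16 (SE; limma adjusted p = 0.226). Cxcl2, with the same receptor, averaged 3.99 against 3.29, close to the floor, and the groups did not overlap for either gene.

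Of 24 neutrophil genes, 6 (25.0%) had an unadjusted p under 0.05 in the higher direction and 1 (4.17%), the growth factor Csf3, in the lower. Over all genes the shares were 4.64% and 4.73%. The 6 include Cxcl1 and Cxcl2, and the count was 4 without unexposed replicate 1. The formyl peptide receptor Fpr2 averaged 6.45 against 5.79 with no overlap. The calprotectin subunit S100a8 was at 9.59, 9.74, 8.59 and 8.48 in exposed and at 8.43, 8.29, 8.84, 8.31 and 8.34 in unexposed mice. Exposed replicates 1 and 2 were above the rest, while the other 2 exposed mice lay below unexposed replicate 3. Its partner S100a9 had the same 2 high mice, at 9.09 and 9.43.

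Of 14 MHC class II genes, 10 were above 0 and 4 below, none passing the adjusted test. An unadjusted p under 0.05 was found for 7 in the higher direction, against 4.64% of all genes, and for 0 in the lower. In 6 of the 14 the exposed mice were all above the unexposed mice, against 2.07% of all genes. With the Gapdh ratio, a measure of RNA integrity, as a covariate the count of 7 was 3. The 7 were the class II chains H2-Ab1, H2-Aa and H2-Eb1, the invariant chain Cd74, the peptide loader H2-DMa, the thiol reductase Ifi30 and Ctss, which cuts the invariant chain. H2-Ab1 was at 10.31, 10.03, 10.07 and 10.29 in exposed and at 9.68, 9.67, 9.85, 10.05 and 9.88 in unexposed mice, a difference of 0.35 ± 0.11 (SE; limma adjusted p = 0.414). The exposed mice were thus above all but 1 of the unexposed mice.

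Cd74 averaged 11.98 ± 0.10 (SD, n = 4) against 11.75 ± 0.13 (SD, n = 5). For Cd74, H2-Eb1 and H2-DMa the lowest mouse was unexposed replicate 1, and without it 5 of the 14 genes had such a p. Leaving out exposed replicate 1 or exposed replicate 3 gave 4. Ciita, the activator that class II promoters depend on, averaged 5.37 against 5.44, with an interval for the difference of -0.44 to 0.30.

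The promoter window of H2-Eb1 is shown because class II promoters carry a known Y box, an inverted CCAAT motif, and H2-Eb1 is a class II gene whose exposure effect also differed from that of C57BL mice. It covers 300 bases, most of them before the start, on the plus strand at chr17:34305617-34305916 of GRCm38.p6, from RefSeq, with the match to CTGATTGG in capitals.
H2-Eb1: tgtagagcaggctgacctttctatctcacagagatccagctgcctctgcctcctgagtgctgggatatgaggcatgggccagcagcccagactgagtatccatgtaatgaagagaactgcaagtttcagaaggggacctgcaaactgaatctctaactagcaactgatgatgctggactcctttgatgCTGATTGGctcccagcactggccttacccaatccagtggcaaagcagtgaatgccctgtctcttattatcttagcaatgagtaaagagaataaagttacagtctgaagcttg
The match starts 62 bases before the gene's start. Searched on both strands, these letters, chosen after the data were seen, were in 4 of 11 class II windows and in 5.6% of the 6573 windows of genes on the array. The match is a description of the letters only.

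Genes of the CD40 and TNF receptor pathways lay on both sides. Of 31 measured, 3 (9.68%) had an unadjusted p under 0.05 in the higher direction and 1 (3.23%) in the lower. The shares of all genes were 4.64% and 4.73%, and the median difference of the list was 0.03. The 3 became 1 without exposed replicate 4 or unexposed replicate 1 and 5 without exposed replicate 3. Nfkb2, the precursor of the p52 subunit that acts downstream of CD40, was at 6.41, 6.33, 6.48 and 6.24 in exposed and at 6.10, 6.22, 5.78, 5.81 and 5.97 in unexposed mice. The groups did not overlap, with a difference of 0.39 ± 0.11 (SE; limma adjusted p = 0.368). Tnfaip3, which restrains NF-kappaB signalling, averaged 3.78 against 4.34.

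Acute phase genes were mixed. Of 28, 6 (21.4%) had an unadjusted p under 0.05 in the higher direction and 0 in the lower, against 4.64% and 4.73% of all genes. The median difference was 0.08. The count of 6 was 3 when exposed replicate 2, unexposed replicate 1 or unexposed replicate 3 was left out. Itih4, an inter-alpha-trypsin inhibitor chain, averaged 6.93 against 6.29 and fibrinogen alpha (Fga) 4.52 against 3.74. Saa3, an acute phase protein made in lung, was at 6.13, 5.92, 6.03 and 6.15 in exposed and at 5.17, 7.07, 5.57, 5.92 and 6.85 in unexposed mice. The 4 exposed mice lay within the range of the unexposed mice, and the interval of the difference was -0.85 to 0.73.

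Genes of type II cells, which make surfactant, had 7 of 17 members (41.2%) with an unadjusted p under 0.05 in the higher direction. The share of all genes was 4.64%. Surfactant protein C (Sftpc) averaged 13.66 against 13.43, the phosphate transporter Slc34a2 11.32 against 11.09, and the aspartic protease Napsa 10.75 against 10.43. The count was 4 without unexposed replicates 1 or 3 and without any 1 of the 4 exposed mice, and 1 with the Gapdh ratio as a covariate. That ratio, the log2 signal of 3' over 5' probe sets and a measure of RNA integrity, lay between 0.06 and 0.31 in the exposed group, and the unexposed group spanned -0.08 to 0.25.

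Genes of cholesterol synthesis were lower in exposed mice without passing the adjusted test. Of 17 measured, 16 were below 0, and 7 (41.2%) had an unadjusted p under 0.05 in the lower direction against 4.73% of all genes. Hmgcs1, which makes the precursor of mevalonate, was at 8.25, 7.93, 8.33 and 8.41 in exposed and at 8.45, 9.39, 8.45, 8.77 and 9.42 in unexposed mice. The groups did not overlap, and unexposed replicates 2 and 5 were the highest. The difference was -0.67 ± 0.23 (SE; limma adjusted p = 0.429).

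Lss, which closes the sterol ring, was at 5.36, 5.70, 5.32 and 5.62 against 5.57, 6.93, 5.76, 6.29 and 6.66. Unexposed replicates 2 and 5 were again the highest, and unexposed replicate 1 lay among the exposed mice. Sqle, Msmo1, Hsd17b7, Sc5d and Nsdhl, which act on squalene and later sterols, differed by -0.79 to -0.44. The count of 7 dropped to 4 when exposed replicate 1 was left out and to 3 when exposed replicate 2 was, and leaving out unexposed replicate 2 or 5 gave 5. With the replicate number as a block it was 1. Both groups held more Hmgcs1 than other CD40L-KO groups, which averaged 7.11 in unexposed and 7.37 in exposed mice of day 32, 6.81 at day 39 and 7.54 at day 75.

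The window of Hmgcs1 is shown because the list's genes are known targets of sterol-responsive transcription. It lies on the plus strand at chr13:119690101-119690400 of GRCm38.p6, from RefSeq, with the match to TCACNCCAC, a form of the sterol regulatory element, in capitals.
Hmgcs1: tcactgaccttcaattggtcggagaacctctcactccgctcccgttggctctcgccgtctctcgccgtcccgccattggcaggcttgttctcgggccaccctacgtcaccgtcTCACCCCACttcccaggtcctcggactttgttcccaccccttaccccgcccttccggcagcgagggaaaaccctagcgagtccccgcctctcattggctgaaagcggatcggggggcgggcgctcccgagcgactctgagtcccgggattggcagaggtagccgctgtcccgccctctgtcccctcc
The match starts 137 bases before the start. The letters, chosen after the data were seen and searched on both strands, were in 1 of 14 windows of the list and in 1.23% of all 6573.

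Smooth muscle genes were also lower. Of 14, 13 were below 0 and 6 (42.9%) had an unadjusted p under 0.05 in the lower direction, against 4.73% of all genes. Smooth muscle actin (Acta2) was at 9.04, 9.66, 8.99 and 9.15 in exposed and at 9.88, 9.74, 9.68, 9.60 and 9.93 in unexposed mice. Exposed replicate 2 reached the unexposed range and the other 3 exposed mice lay below it, with a difference of -0.55 ± 0.14 (SE; limma adjusted p = 0.350). Calponin (Cnn1), Actg2 and Tagln had exposed replicate 2 as their highest exposed mouse too, and that array also had the highest cardiac muscle score of the exposed group, a coincidence whose part was not tested. Myosin heavy chain 11 (Myh11) averaged 7.33 against 7.42. With the Gapdh ratio as a covariate the count was 2.

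**Figure D4:**
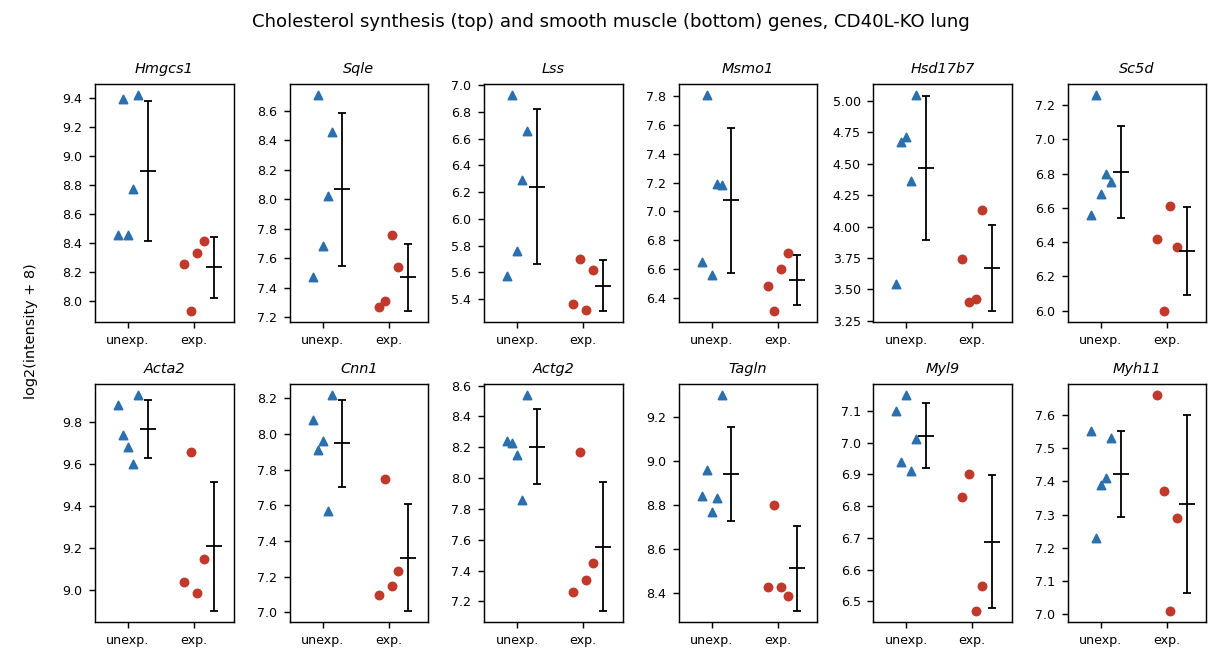
Levels of 6 cholesterol synthesis and 6 smooth muscle genes in each mouse, in log2(intensity + 8). Triangles are the 5 unexposed and circles the 4 exposed CD40L-KO mice, bars give mean and SD, and each panel has its own axis that does not start at 0. Hmgcs1 and Myl9 are the genes shown whose groups do not overlap.

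Lymphocyte genes gave small differences in both directions. Of 27 T cell genes, 2 (7.41%) had an unadjusted p under 0.05 in the higher and 2 (7.41%) in the lower direction. The shares of all genes were 4.64% and 4.73%, and the median difference of the list was 0.03. Ifng averaged 3.20 against 3.62 and Il13 3.69 against 3.65, all near the floor. The immunoglobulin light chain probe set Igk averaged 4.01 against 3.26 (difference 0.75 ± 0.11, SE; limma adjusted p = 0.134), but a second probe set of Igk differed by -0.09. Ighg3 averaged 4.73 against 5.23 (difference -0.50 ± 0.11, SE; limma adjusted p = 0.241), while its 6 other probe sets differed by -0.28 to 0.24. Immunoglobulin genes share sequence, so their probe sets can take up transcripts of one another. Igha averaged 6.58 against 6.51.

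Of 63 cell cycle genes, 0 had an unadjusted p under 0.05 in the higher and 5 (7.94%) in the lower direction. The shares of all genes were 4.64% and 4.73%. The survivin gene Birc5, among the 5, averaged 4.31 in exposed and 4.73 in unexposed mice. Without unexposed replicate 1 the counts of 0 and 5 were 3 and 5, and without unexposed replicate 3 or 5 the lower count was 3. Clock genes and immediate-early genes, which depend on the hour and handling of the animal, did not pass the adjusted test. Per1 averaged 6.16 against 5.49, Dbp 4.75 against 3.90 and Nr1d1 6.65 against 6.03. Of 18 clock genes, 5 (27.8%) had an unadjusted p under 0.05 in the higher direction and 1 (5.56%) in the lower. Without exposed replicate 1 the clock counts were 3 and 1. Of 33 immediate-early and stress response genes, 5 (15.2%) had such a p in the higher direction, 2 (6.06%) in the lower and 26 in neither. Their median of 0.08 became -0.02 without exposed replicate 2. Fos was at 8.56, 9.34, 7.02 and 6.77 in exposed and at 7.06, 7.17, 6.26, 6.74 and 7.06 in unexposed mice, so that exposed replicates 1 and 2 stood above the rest. These same 2 mice were the highest for S100a8, and no hour of death was stated in the sources used here.

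The exposure effect in CD40L-KO mice was next set against that in C57BL mice exposed for 34 days, of which there were 10 with 5 unexposed mice. The difference of the 2 effects passed the adjusted test for 48 of 8252 genes (0.582%), 39 with a lower (0.473%) and 9 with a higher effect (0.109%) in CD40L-KO mice. The lower ones held 6 of 27 interferon-gamma response genes, 5 of 18 MHC class I genes, 6 of 41 chemokines and receptors and 7 of 63 cell cycle genes.

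Clca1, a secreted protein of goblet cells, had the largest difference. It rose by 5.51 ± 0.29 (SE) in C57BL mice, from 6.11 to 11.62, with a limma adjusted p of 4.55e-09. In CD40L-KO mice it was at 3.54, 4.38, 6.05 and 4.11 in exposed and at 3.93, 4.48, 4.23, 3.08 and 4.26 in unexposed mice, so 1 exposed mouse, replicate 3, was above the unexposed range. The effects differed by -4.98 ± 0.54 (SE; limma adjusted p = 1.45e-05).

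Cxcl9, an interferon-gamma-induced ligand of the chemokine receptor Cxcr3, averaged 3.86 in exposed and 3.50 in unexposed CD40L-KO mice, against 7.55 and 3.90 in C57BL mice. The lowest exposed C57BL mouse (6.86) was above the highest CD40L-KO mouse (4.28), and the effects differed by -3.29 ± 0.38 (SE; limma adjusted p = 2.86e-05). Saa3 (-4.01 ± 0.57), the chemokine Ccl8 (-2.90 ± 0.38) and the iron-binding Lcn2 (-2.25 ± 0.46) had lower effects too.

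The interferon-induced GTPases Igtp and Gbp2 did not separate the CD40L-KO groups. Igtp was at 5.89, 6.58, 6.50 and 6.97 in exposed and at 6.43, 6.64, 6.78, 6.48 and 5.97 in unexposed mice, and the range of the unexposed mice lay within that of the exposed mice. In C57BL mice it rose by 2.01 ± 0.20 (SE; limma adjusted p = 2.12e-05), and the effects differed by -1.98 ± 0.32 (SE; limma adjusted p = 0.00237). For Gbp2 the interval of the CD40L-KO difference was -0.24 to 0.24, and the effects differed by -1.63 ± 0.30 (SE; limma adjusted p = 0.0096). Cxcl10 (-1.59), the peptide transporter Tap1 (-1.21), the immunoproteasome subunit Psmb8 (-0.93) and the proliferation genes Birc5 (-1.83) and Mki67 (-1.15) were among the 39 as well.

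The windows of Igtp, Gbp2 and Cxcl10 are shown because they are interferon-induced genes whose exposure effect differed from that of the C57BL mice. Each covers 300 bases, most of them before the start, in GRCm38.p6, from RefSeq, at chr11:58199306-58199605 (plus strand), chr3:142620413-142620712 (plus strand) and chr5:92348840-92349139 (minus strand). Capitals mark matches to the core of the interferon-stimulated response element and, in Igtp, also to the gamma-activated sequence TTCNNNGAA, on either strand.
Igtp: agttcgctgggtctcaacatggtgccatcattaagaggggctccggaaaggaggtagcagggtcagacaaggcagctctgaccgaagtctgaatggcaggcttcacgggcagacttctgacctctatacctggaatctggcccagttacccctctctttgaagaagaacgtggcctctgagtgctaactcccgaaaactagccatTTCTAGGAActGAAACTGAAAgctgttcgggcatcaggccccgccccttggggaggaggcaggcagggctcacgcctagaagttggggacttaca
Gbp2: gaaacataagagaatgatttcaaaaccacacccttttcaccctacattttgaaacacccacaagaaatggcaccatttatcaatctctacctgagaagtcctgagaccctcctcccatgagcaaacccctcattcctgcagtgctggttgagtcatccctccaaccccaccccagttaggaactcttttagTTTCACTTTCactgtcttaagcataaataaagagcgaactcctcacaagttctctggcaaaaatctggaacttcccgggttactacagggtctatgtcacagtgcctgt
Cxcl10: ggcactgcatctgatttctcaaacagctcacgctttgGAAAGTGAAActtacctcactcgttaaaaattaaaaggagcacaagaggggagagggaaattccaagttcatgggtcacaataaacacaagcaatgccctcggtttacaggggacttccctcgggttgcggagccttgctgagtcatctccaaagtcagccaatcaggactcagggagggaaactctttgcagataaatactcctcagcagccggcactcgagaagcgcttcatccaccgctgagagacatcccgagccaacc
In Igtp the response element starts 34 and the gamma-activated sequence 45 bases before the start, and in Gbp2 and Cxcl10 the response element starts 59 and 213 bases before it. Of 26 windows of list members whose effect differed from that in C57BL mice, 5 (19.2%) held the response element and 3 (11.5%) the gamma-activated sequence. Of 21 windows of the interferon-gamma list, called or not, 8 held the response element and 6 the gamma-activated sequence. Over all 6573 windows the shares were 3.3% and 7.14%. The matches describe letters and do not show binding.

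H2-Eb1 rose by 1.33 ± 0.18 (SE; limma adjusted p = 0.000353) in C57BL mice and was higher by 0.21 ± 0.09 in CD40L-KO mice, and the effects differed by -1.12 ± 0.24 (SE; limma adjusted p = 0.0283). For Ccl9 the effects were 2.32 ± 0.37 in C57BL and 1.05 ± 0.15 in CD40L-KO mice, and their difference did not pass (limma adjusted p = 0.317). Marco was at 4.81 in exposed and 5.21 in unexposed C57BL mice, and its difference of effects was 2.12 ± 0.51 (SE; limma adjusted p = 0.0567). A higher effect in CD40L-KO mice was called for the immediate-early gene Egr1 (1.72 ± 0.38), Clec3b (1.36 ± 0.28) and the matrix proteoglycan Ogn (1.05 ± 0.19), each with the mean of exposed C57BL mice below that of unexposed ones.

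The count of 48 leaned on single arrays. It was 14, 20, 29 and 26 without exposed CD40L-KO replicates 1, 2, 3 and 4, 22, 29 and 20 without unexposed CD40L-KO replicates 2, 3 and 5, and 30 and 88 without unexposed C57BL replicates 2 and 5. Clca1, Saa3, Cxcl9, Ccl8, Igtp, Gbp2, Psmb8 and Birc5 were called in each refit that tested them, though the difference of Clca1 was -2.74 with the mean of its probe sets and that of Birc5 -1.12 with an offset of 32. The call was lost for Egr1 in 13, H2-Eb1 in 10, Clec3b in 6, Lcn2 and Tap1 in 5 each, Ogn in 2 and Mki67 in 1 of 35 refits, and for Cxcl10 in 7 of 34. When a gene's probe sets were averaged, Egr1 differed by 0.53, Tap1 by -0.32, Ogn by 0.54 and Mki67 by -0.58, none of them called. The C57BL and CD40L-KO mice came from different experiments. Squamous scores had a median of 6.97 in unexposed and 5.34 in exposed C57BL mice, and each of these C57BL mice held more Xist (7.46 or higher) than Eif2s3y (3.83 or lower), the reverse of the CD40L-KO mice. The log2 3' to 5' ratio of Gapdh had a median of 1.26 in unexposed and 0.16 in exposed C57BL mice. On the CD40L-KO arrays compared it lay between -0.08 and 0.31. With that ratio as a covariate the count of 48 was 20. Strain, experiment, sex and RNA integrity cannot be told apart here.

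**Figure D5:**
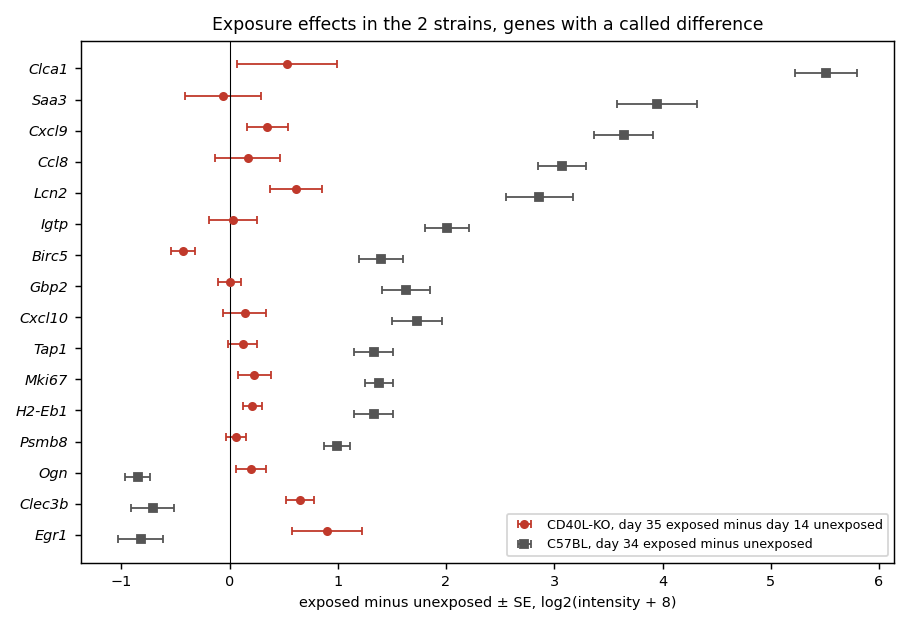
Exposure effect with its SE for 16 genes with a called difference of effects, in log2(intensity + 8). Circles are CD40L-KO mice (4 exposed, 5 unexposed) and squares C57BL mice of day 34 (10 exposed, 5 unexposed). The effects of Clca1 are 0.53 and 5.51, and Ogn, Clec3b and Egr1 are the genes shown with a negative effect in C57BL mice.

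The day 35 effect was also set against that of CD40L-KO mice of the first experiment, with 3 exposed and 3 unexposed mice of day 32. Taken alone, day 32 gave 0 called genes in limma (0.0%), with 1137 genes (13.8%) at an unadjusted p under 0.05. The difference of effects was called for 109 genes (1.32%), 24 higher (0.291%) and 85 lower (1.03%) at day 35, and the median over all genes was -0.07. It uses the same day 35 and day 14 arrays as the comparison with C57BL mice. Each mouse of day 32 held more Xist (6.85 or higher) than Eif2s3y (4.24 or lower), the reverse of the day 35 and day 14 mice. Experiment and sex therefore cannot be told apart in this contrast either.

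At day 32, 4825 of all 8252 genes were above 0, with 775 at an unadjusted p under 0.05 in the higher and 362 in the lower direction. Most members of the macrophage and chemokine lists were above 0 at that day, as were most of all genes. The day 32 median was 0.06 for the macrophage list, the same as over all genes, and 0.25 for the chemokine list. There 19 of 30 macrophage genes were above 0, with 5 at an unadjusted p under 0.05 in the higher and 4 in the lower direction, and 30 of 41 chemokines and receptors, with 9 and 0. The difference of effects was called for 1 of the 30 and 2 of the 41, all with a higher effect at day 35, while the median difference of effects was 0.13 over the 30 and -0.25 over the 41. The 3 called genes had exposed means below the unexposed means at day 32. Ccl9 averaged 7.28 in exposed and 7.50 in unexposed mice of day 32, and the effects differed by 1.27 ± 0.25 (SE; limma adjusted p = 0.0277). Cd14 averaged 8.28 and 8.72 there, a difference of effects of 0.88 ± 0.18 (SE; limma adjusted p = 0.0342), and Cxcl2 differed by 1.05 ± 0.22 (SE; limma adjusted p = 0.0348). These calls held in 15 of 26, 11 of 26 and 8 of 25 refits. Marco averaged 4.75 and 4.99 at day 32, and its difference of 1.97 did not pass (limma adjusted p = 0.102).

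Most of the called genes had a lower effect at day 35. Ighg3 differed by -1.83 ± 0.17 (SE; limma adjusted p = 0.000287), or by -0.69 with the mean of its probe sets, which disagreed at day 35, and its call was lost in 2 of 26 refits. Lower effects were also called for the phosphatase Ppm1b (-1.36 ± 0.14), the sorting nexin Snx2 (-1.31 ± 0.19), the class II chain H2-Ob (-1.18 ± 0.16) and Fcer2a of the B cell list (-1.15 ± 0.17). Snx2 differed by -0.69 with the mean of its probe sets, which was not called. For Ppm1b the exposed mice averaged 7.29 and the unexposed 7.47 in the fourth experiment, against 7.05 and 5.87 at day 32, with the unexposed mice of day 32 the lowest of the 4 groups. The helicase Ddx49 had a higher effect by 1.35 ± 0.18, with 3.84 in exposed and 5.14 in unexposed mice of day 32 and 5.33 and 5.27 here.

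With the Gapdh ratio as a covariate, 0 of the 109 were called. The median squamous score was 6.90 in unexposed and 5.45 in exposed mice of day 32, and their log2 3' to 5' ratio of Gapdh lay between 0.22 and 0.45 in unexposed and between -0.12 and 0.00 in exposed mice. The count was 43 and 28 without day 32 exposed replicates 2 and 3, and 59 without day 32 unexposed replicate 1. It was 56, 35, 70 and 47 without day 35 exposed replicates 1, 2, 3 and 4, and 52, 60 and 53 without day 14 unexposed replicates 3, 4 and 5.

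Ccl9 and Marco were at or above the day 35 level in CD40L-KO mice of day 75 but not of day 39. The 3 mice exposed for 75 days had Ccl9 between 8.14 and 8.64 and Marco between 6.19 and 6.57, and mice exposed for 39 days averaged 7.32 and 4.74. No unexposed CD40L-KO mice carry those day labels, so these levels have no control of their own.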

How the data were processed

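Probe set intensities of 95 Affymetrix arrays of mouse lung RNA were analysed, of which 9 belong to the comparison. The deposited values are linear intensities. The trimmed mean of each array, leaving out 2% at each end, was 100.05 to 100.07, which shows that the authors scaled the arrays to a common mean. How probes were summarised is not stated in the labels used here. Of 12487 probe sets, 10855 had 1 gene symbol in the platform annotation, 396 several and 1236 none. The brightest probe set stood for each of 8252 genes, 2075 of which had several. Intensities were not normalised further, 8 was added and log2 taken.

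Groups were taken from the sample titles. Linear models were fitted with limma 3.58.1 (R 4.3.3; lmFit, then eBayes) on the arrays of the groups compared, with Benjamini-Hochberg adjustment over all genes and a threshold of 0.05. Differences of effects were contrasts of 4 groups. Scores were compared by exact two-sided permutation tests. Alternatives were offsets of 2 and 32, dropping dim genes, quantile normalisation, all 95 arrays, the mean of probe sets, a replicate block, tissue scores or the Gapdh ratio as covariates, trend and robust fits, and leaving out each array. Array quality weights, the sterol and Y box motifs and list counts without unexposed replicate 1 were added after seeing the data. The fits were tested on simulated data. The members and gene lists were chosen with earlier results of these data known. Genes were named if they were called, belonged to a list, were on a short list of single genes or had 1 of the 5 largest differences of effect in a direction; others are said to be chosen after their values were seen. Sequences came from RefSeq (GRCm38.p6). Figures were drawn with matplotlib 3.10.9 under Python 3.11.15. The number of arrays limits the precision.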

Additional observations from a re-analysis of the deposited data

Results flagged for a closer look

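Of 202 groups of values examined, 92 genes and 9 scores in the exposed and the unexposed mice, 18 had a highest or lowest mouse set apart from the rest by Dixon's test at the 95% level, where chance alone sets apart about 1 in 20. Of these, 9 concerned unexposed replicate 1. It was the lowest of 5 for Itgax (6.18), Tyrobp (8.46), Ctss (9.19), Cd68 (7.04), H2-Eb1 (9.81), H2-DMa (8.45) and Cd74 (11.52), and the highest for the squamous epithelium score (6.36) and skeletal muscle score (6.46). Among the other unexposed mice, replicate 2 was the highest for Ccl9 (7.05) and replicate 3 was the highest for S100a8 (8.84). Among the exposed mice, replicate 1 was the lowest for Gbp2 (7.78), replicate 2 was the highest for Tagln (8.80), the highest for Junb (8.02), the lowest for Birc5 (4.04) and the highest for the cardiac muscle score (7.82), replicate 3 was the highest for Ak4 (3.92) and replicate 4 was the highest for Psmb8 (9.11).

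The effect of exposure differed between CD40L-KO mice of day 35 and C57BL mice of day 34, by the contrast of the effects in limma, for genes whose effect was lower in CD40L-KO mice, Clca1 (-4.98), Saa3 (-4.01), Cxcl9 (-3.29), Ccl8 (-2.90), Lcn2 (-2.25), Igtp (-1.98), Gbp2 (-1.63), Cxcl10 (-1.59), Tap1 (-1.21), Psmb8 (-0.93), Birc5 (-1.83), Mki67 (-1.15), Chil3 (-1.13) and H2-Eb1 (-1.12), and for genes whose effect was higher, Egr1 (1.72), Clec3b (1.36) and Ogn (1.05). Against CD40L-KO mice of day 32 the effect at day 35 was lower for Ighg3 (-1.83), Ighv14-2 (-1.26), Ppm1b (-1.36), Snx2 (-1.31), Fcer2a (-1.15) and H2-Ob (-1.18) and higher for Cd14 (0.88), Ccl9 (1.27), Cxcl2 (1.05), Ddx49 (1.35), Clec3b (1.03) and Rps28 (0.67). Values are differences of effects in log2(intensity + 8). Rps28 is a ribosomal protein gene and Ighv14-2 an immunoglobulin variable gene. Against C57BL mice the call of Chil3 was lost in 7 of 35 refits. Against day 32 that of Ighv14-2 was lost in 7, that of Rps28 in 6 and that of Clec3b in 5 of 26 refits.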

How the results depend on the processing

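The count of 0 called genes between exposed and unexposed CD40L-KO mice became 3 with an offset of 2, 20 with all 95 arrays and 1 with an intensity trend and robust fit. It ranged from 0 to 1 when 1 array was left out, and was 0 with the replicate block and in the other settings. Replicate numbers gave no sign of pairing the mice. Deviations of mice with the same number correlated by -0.201 to 0.060, and those of other pairs by -0.151 to 0.226. So few pairs cannot exclude a pairing.

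The count of 48 genes whose effect differed from that in C57BL mice was 324 with all 95 arrays, 14 with the replicate block, 20 with the Gapdh ratio and 115 with array quality weights, and ranged from 14 to 88 when 1 array was left out. The count of 109 against day 32 was 172 with an offset of 32, 167 without dim genes, 29 with all 95 arrays, 16 with the replicate block, 29 with the tissue scores, 0 with the Gapdh ratio and ranged from 28 to 104 when 1 array was left out. The split of these moved too, from 24 higher and 85 lower to 59 and 113 with an offset of 32 and to 30 and 65 with quantile normalisation. The causes were not tested. The number of tissue and RNA quality scores with an adjusted p under 0.05 was 0 in every setting run. With so few arrangements no score could have passed alone, so this count does not show that the groups are alike. No called gene named here reversed its direction in any refit. Among 92 genes named for the main comparison, 40 of 1816 refits changed the sign of an uncalled difference. Genes near the floor of 3, such as Cxcl2, Ifng and Igk, have differences that depend on the offset.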

Other observations

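Of 36 collagen and matrix genes, 17 were above 0 with a median of -0.02, and none passed the adjusted test. An unadjusted p under 0.05 was found for 6 (16.7%) in the higher direction and 3 (8.33%) in the lower. Over all genes these shares were 4.64% and 4.73%. The 6 included the 3 chains of collagen VI, Col6a1 (0.28), Col6a2 (0.33) and Col6a3 (0.29), fibronectin Fn1 (0.26) and biglycan Bgn (0.26), and the 3 included the basement membrane chain Col4a3 (-0.30). Of 34 insulin-like growth factor and TGF-beta genes, 12 were above 0 with a median of -0.03. There 4 (11.8%) had such a p in the higher direction and 2 (5.88%) in the lower. The growth factor gene Tgfb1 was higher by 0.47 and the binding protein genes Igfbp2 and Igfbp3 by 0.43 and 0.56, while most of that list lay below 0.

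Of 25 natural killer and cytotoxic genes, 2 (8.0%) had an unadjusted p under 0.05 in the higher direction and 3 (12.0%) in the lower. Over all genes the shares were 4.64% and 4.73%. The interleukin-2 receptor chain Il2rb differed by -0.67 and the granzyme Gzmm by -0.56, both without overlap, and the shared Fc receptor chain Fcer1g by 0.73. Il10, which belongs to another list, that of type 2 response and alternative activation, differed by -0.72, the lowest of its 22 members. The median of that list was 0.00, and 3 (13.6%) had an unadjusted p under 0.05 in the higher direction and 1 (4.55%) in the lower. The platelet glycoprotein Gp9 was at 5.85, 5.40, 5.82 and 5.72 in exposed and at 5.34, 4.26, 4.92, 4.13 and 4.64 in unexposed mice, a difference of 1.04 ± 0.23 (SE; limma adjusted p = 0.274), and the other members of its list of 9 had an unadjusted p over 0.05. Outside the lists and chosen after their values were seen, coagulation factor X (F10) averaged 5.52 against 4.85 and the adenylate kinase Ak4 3.48 against 4.58. Their adjusted p in limma was 0.134 and 0.152, and that of F10 was 0.0327 with all 95 arrays in 1 fit.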
